A study of Mus musculus with 2 samples.

Results

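Tumours recruit T cells whose later behaviour depends on costimulation, and the 7 genes described here encode that second layer of signals: Tnfrsf4 (OX40), Tnfrsf9 (4-1BB), Tnfrsf18 (GITR), Cd27, Cd28, Icos and Cd40lg. They were chosen by name, as the listed symbols among 32432 measured genes, and every member was present in the deposited gene list. Their raw UMI counts (unique molecular identifiers, 1 per captured transcript molecule) were read in CD8 T cells, CD4 T cells, regulatory T cells (Treg) and natural killer (NK) cells of 8 hashtagged samples from B16-F10 mouse melanomas. The samples labelled Trex1 iKO had the genotype Trex1 fl/fl-R26CreERT2-ki/wt, and those labelled control had Trex1 wt/fl-R26CreERT2-ki/wt. Each genotype had 4 samples. The control carried the inducible Cre and 1 floxed allele and was therefore not wild type. TREX1 is an exonuclease that clears cytosolic DNA, and the stated aim was to see how knocking it out alters immunity against the tumour. Males of 8 to 12 weeks received 1000 tumour cells intradermally on both legs and 1 mg of tamoxifen on 3 successive days from day 5, and tumours were collected on day 14. Both genotypes received tamoxifen, and CreERT2 driven from the R26 locus acts in host cells of any type, so no result below can be assigned to loss of Trex1 within the lymphocytes themselves. Leukocytes (CD45-positive, alive) were taken on magnetic beads and by sorting, then sequenced from transcript 3' ends in droplets.

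A T cell that meets antigen through its receptor needs further signals to divide, survive and become an effector cell. CD28 and ICOS are members of the immunoglobulin superfamily that signal through phosphoinositide 3-kinase, with CD28 present on resting T cells and ICOS induced on activation. OX40, 4-1BB, GITR and CD27 belong to the TNF receptor superfamily and signal through TRAF adaptors to NF-kB, with ligands of the TNF family on antigen-presenting cells. CD40 ligand runs the other way, from helper T cells to CD40 on dendritic cells, macrophages and B cells.

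The 8 samples held 23731 barcodes, of which 22490 passed filters of 300 genes and 10% mitochondrial counts. Total UMIs per sample were 17111065 to 96457227, and the median per cell was 5794 to 14221. Gates were UMI rules on lineage markers that used no member of the family. They held 4526 CD8 T, 602 CD4 T, 495 Treg and 112 NK cells, and 2261 macrophages, 277 mature dendritic cells (DC) and 453 B cells served for ligands and background. The T cell gates took 37.3% to 67.6% of cells with at least 2 Cd3 UMIs in a sample. Marker sums were set beside the gates. NK gates averaged 1699 CPM (UMIs scaled to 1000000 per sample and gate) of NK markers in iKO against 1341 CPM in control. T cell markers stood at 26.6 and 13.3 CPM. Both lists share genes with the NK rule, so these sums were partly fixed by the gate and cannot check its name. Neutrophil markers in NK gates summed to 84.7 to 112 CPM in iKO and to 214 to 7608 CPM in control (median 303), and control sample 1, the highest, had more of them than of NK markers; their part in the NK values was not tested. Trex1 had 2 UMIs in all, both in control sample 2, so these counts cannot check its deletion. Each genotype was run as its own pool, so pool and genotype cannot be told apart. The labels do not say that each hashtag was 1 mouse, so p-values measure only the spread between these samples. iKO samples 1 and 2 stood apart: they had 1087 and 2202 CD8 T cells against 117 to 380 in the other 6 samples, and 89.8% and 89.9% of those cells had Pdcd1 UMIs, against 41.0% to 67.9%. Genotype results were also computed without these 2 samples. Levels come from sums over gated cells, in which fewer expressing cells and less RNA per cell cannot be told apart.

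Tnfrsf4 (ENSMUSG00000029075) was highest in Treg, then CD4 T, then CD8 T, then NK cells. Its mean over 8 samples was 1457 ± 580 CPM (SD) in Treg, 394 ± 130 in CD4 T, 131 ± 57.7 in CD8 T and 9.03 ± 10.9 in NK cells. The difference was 1.92 ± 0.22 on the log2 scale (SE) between Treg and CD4 T cells, with an edgeR adjusted p of 1.40e-06, and 1.55 ± 0.22 between CD4 and CD8 T cells, with an adjusted p of 1.18e-05. NK cells were lower than CD8 T cells by 4.27 ± 0.92 (log2, adjusted p = 0.00488), although only 2 NK profiles had the 20 cells required, and dropping iKO sample 2 (adjusted p = 0.104) or control sample 3 (0.0545) ended the call. Of the 7 members, 7 differed between CD4 and CD8 T cells, 5 between Treg and CD4 T cells, 7 between Treg and CD8 T cells and 2 between NK and CD8 T cells. The shares of all 8601 tested genes called in those comparisons were 34.3%, 21.1%, 27.1% and 7.48%.

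Tnfrsf9 (ENSMUSG00000028965), an activation-induced receptor used as a marker of recently stimulated T cells, followed another order. It averaged 744 ± 208 CPM in Treg, 301 ± 202 in NK, 286 ± 106 in CD8 T and 147 ± 63.9 in CD4 T cells (SD, n = 8). NK and CD8 T cells were not separated by the test, with a log2 difference of -0.20 ± 0.32 (SE) and an edgeR adjusted p of 0.785. CD4 T cells were lower than CD8 T cells by 1.05 ± 0.17 (SE, log2) with an edgeR adjusted p of 6.18e-05. That call was lost, at -0.24 and 0.305, when each cell was thinned to 3000 UMIs and gated again on the thinned counts. Tnfrsf18 (ENSMUSG00000041954), constitutively high on Treg, averaged 1004 ± 312 CPM in Treg, 385 ± 86.1 in CD4 T, 296 ± 126 in NK and 212 ± 53.6 in CD8 T cells. Treg exceeded CD4 T cells by 1.45 ± 0.16 and CD4 T exceeded CD8 T cells by 0.78 ± 0.15, with adjusted p of 6.15e-07 and 0.000401. NK and CD8 T cells were not separated by the test (0.55 ± 0.29, adjusted p = 0.271), and NK cells were not tested against CD4 T cells. Cd27 (ENSMUSG00000030336), a receptor for CD70 that supports T cell survival, averaged 270 ± 75.5 CPM in Treg, 203 ± 18.0 in CD8 T, 114 ± 36.4 in CD4 T and 109 ± 28.8 in NK cells. It was 1.32 ± 0.14 higher in Treg and 0.93 ± 0.13 higher in CD8 T than in CD4 T cells (log2, adjusted p = 3.10e-07 and 7.79e-06), whereas Treg exceeded CD8 T cells by 0.39 ± 0.12 (adjusted p = 0.0209), a call lost without iKO sample 1 (0.0550), iKO sample 2 (0.13) or both (0.216), and with profiles of 10 cells or more (0.124).

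**Figure D1:**
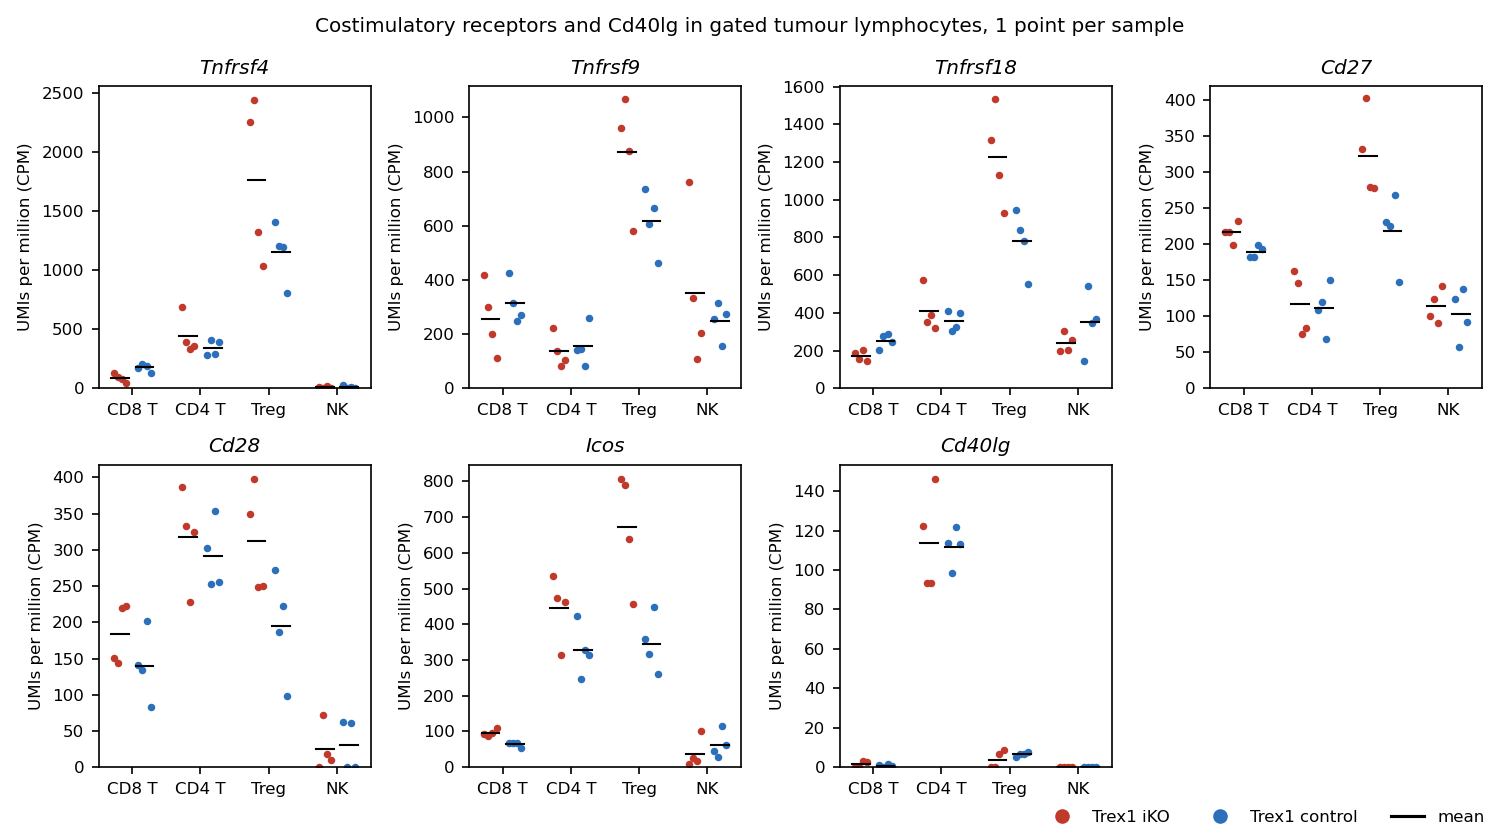
CPM of each member (y axis) in 4 lymphocyte gates (x axis), with 1 point per sample (red, Trex1 iKO; blue, Trex1 control) and black lines at group means. Treg stand highest for Tnfrsf4, Tnfrsf9 and Tnfrsf18, CD4 T cells for Cd40lg, and the NK points rest on 3 to 31 cells each.

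Of the 7 genes, 3 lie on mouse chromosome 4, and Tnfrsf4 and Tnfrsf18 are neighbours there with 0 protein-coding genes between them in RefSeq GRCm38.p6, while 84 separate Tnfrsf18 from Tnfrsf9. The start regions of these 3 receptors are shown because they share a chromosome and were called higher in Treg than in both CD4 T and CD8 T cells. Cd27, on chromosome 6, was also called higher in both comparisons, and its window held 0 matches to the motifs below. RefSeq promoters, 250 bases before to 50 after a start, were found for 4 of the 7 members. Matches were sought on both strands to AP-1 (TGANTCA), NF-kB and the interferon-stimulated response element GAAANNGAAA. Only the downstream of the 2 Tnfrsf9 starts had any: 1 AP-1 word and 2 overlapping NF-kB words, shown in capitals. In all 32851 promoters of that length, 7.81% held AP-1, 8.46% held NF-kB and 3.44% held the interferon element. The letters describe these windows and no factor's binding.
Tnfrsf9, downstream start, chr4:150927749-150928048 (+): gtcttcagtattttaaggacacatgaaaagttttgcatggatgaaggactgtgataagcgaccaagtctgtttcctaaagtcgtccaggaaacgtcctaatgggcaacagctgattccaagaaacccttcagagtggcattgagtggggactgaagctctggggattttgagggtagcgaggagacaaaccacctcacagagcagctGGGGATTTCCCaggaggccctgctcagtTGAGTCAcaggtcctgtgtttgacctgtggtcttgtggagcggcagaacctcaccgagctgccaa
Tnfrsf4, chr4:156013445-156013744 (+): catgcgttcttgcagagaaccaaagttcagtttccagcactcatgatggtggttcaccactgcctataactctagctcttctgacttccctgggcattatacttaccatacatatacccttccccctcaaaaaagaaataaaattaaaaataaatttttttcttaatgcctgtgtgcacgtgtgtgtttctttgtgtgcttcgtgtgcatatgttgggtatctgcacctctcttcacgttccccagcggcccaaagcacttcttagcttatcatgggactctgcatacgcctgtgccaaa
Tnfrsf18, chr4:156026072-156026371 (+): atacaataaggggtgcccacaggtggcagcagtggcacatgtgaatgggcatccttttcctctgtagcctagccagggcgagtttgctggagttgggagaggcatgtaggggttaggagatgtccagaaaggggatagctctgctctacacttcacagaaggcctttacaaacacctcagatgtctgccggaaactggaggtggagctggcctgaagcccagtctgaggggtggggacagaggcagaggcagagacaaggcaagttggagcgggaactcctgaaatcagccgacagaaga

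The CD28 family members had a different order across gates. Cd28 (ENSMUSG00000026012), the receptor for CD80 and CD86, averaged 304 ± 55.1 CPM in CD4 T, 253 ± 92.4 in Treg, 162 ± 48.8 in CD8 T and 28.0 ± 31.6 in NK cells (SD, n = 8). CD4 T cells and Treg were not separated by the test (Treg minus CD4 T, -0.29 ± 0.15 on the log2 scale, edgeR adjusted p = 0.189). CD4 T exceeded CD8 T cells by 0.87 ± 0.14 and NK were below CD8 T cells by 1.49 ± 0.35, with adjusted p of 5.53e-05 and 0.0103. Dropping iKO sample 2 (0.0651) or control sample 3 (0.162) ended the NK call. Icos (ENSMUSG00000026009), which binds ICOS ligand and aids helper and regulatory T cells, averaged 509 ± 211 CPM in Treg, 387 ± 100 in CD4 T, 80.5 ± 18.7 in CD8 T and 50.7 ± 39.7 in NK cells. Treg and CD4 T cells were not separated by the test (0.35 ± 0.16, adjusted p = 0.119), nor were NK and CD8 T cells (-0.40 ± 0.40, adjusted p = 0.621), although thinned cells separated both pairs (0.60, adjusted p = 0.00475, and -1.50, adjusted p = 0.0239). In the same fit, CD4 T exceeded CD8 T cells by 2.20 ± 0.16 (adjusted p = 6.02e-10). Cd40lg (ENSMUSG00000031132), the helper T cell ligand, averaged 113 ± 17.8 CPM in CD4 T cells against 5.11 ± 3.30 in Treg, 1.17 ± 1.14 in CD8 T and 0 in NK cells. CD4 T cells exceeded CD8 T cells by 7.21 ± 0.33 and Treg by 4.76 ± 0.37 (log2, adjusted p = 7.18e-13 and 7.02e-09). The CD4 T gate held 28.8% to 55.4% of each sample's Cd40lg UMIs. The 0 in NK cells allowed levels of up to 12.8 to 91.7 CPM, taking 3 counts per sample as the limit for counting error alone.

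At 3000 UMIs per cell, the share of cells with a UMI of a member was compared with depth held fixed. Tnfrsf4 was detected in 86.9% ± 8.99 of Treg, 43.2% ± 8.26 of CD4 T, 17.2% ± 6.62 of CD8 T and 2.96% ± 5.76 of NK cells (SD, n = 8). Tnfrsf18 was detected in 85.9% of Treg, and Tnfrsf9 in 72.9% of Treg and 33.3% of CD8 T cells. Cd40lg was detected in 28.1% ± 5.78 of CD4 T cells and 1.80% of Treg. In macrophages, the background used here, the shares ran from 0% for Cd40lg to 3.50% for Tnfrsf9, at median depths of 14890 to 17845 UMIs per cell against 8055 to 17886 in CD8 T cells before thinning. Cells with fewer UMIs were left out, 35 of 3659 iKO and 18 of 867 control CD8 T cells, 4 of 209 and 35 of 393 CD4 T cells, and 5 of 271 and 25 of 224 Treg. Before thinning, Tnfrsf4 was detected in 91.6% of Treg, 54.1% of CD4 T, 34.7% of CD8 T and 7.71% of NK cells, against 6.89% of macrophages. Of 28 pairs of member and lymphocyte gate, 26 had a mean above every macrophage sample, and the other 2 were Tnfrsf4 and Cd40lg in NK cells. Mature DC also carried 3 receptors, with Tnfrsf4 in 31.0%, Tnfrsf9 in 31.3% and Tnfrsf18 in 31.2% of cells.

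**Figure D2:**
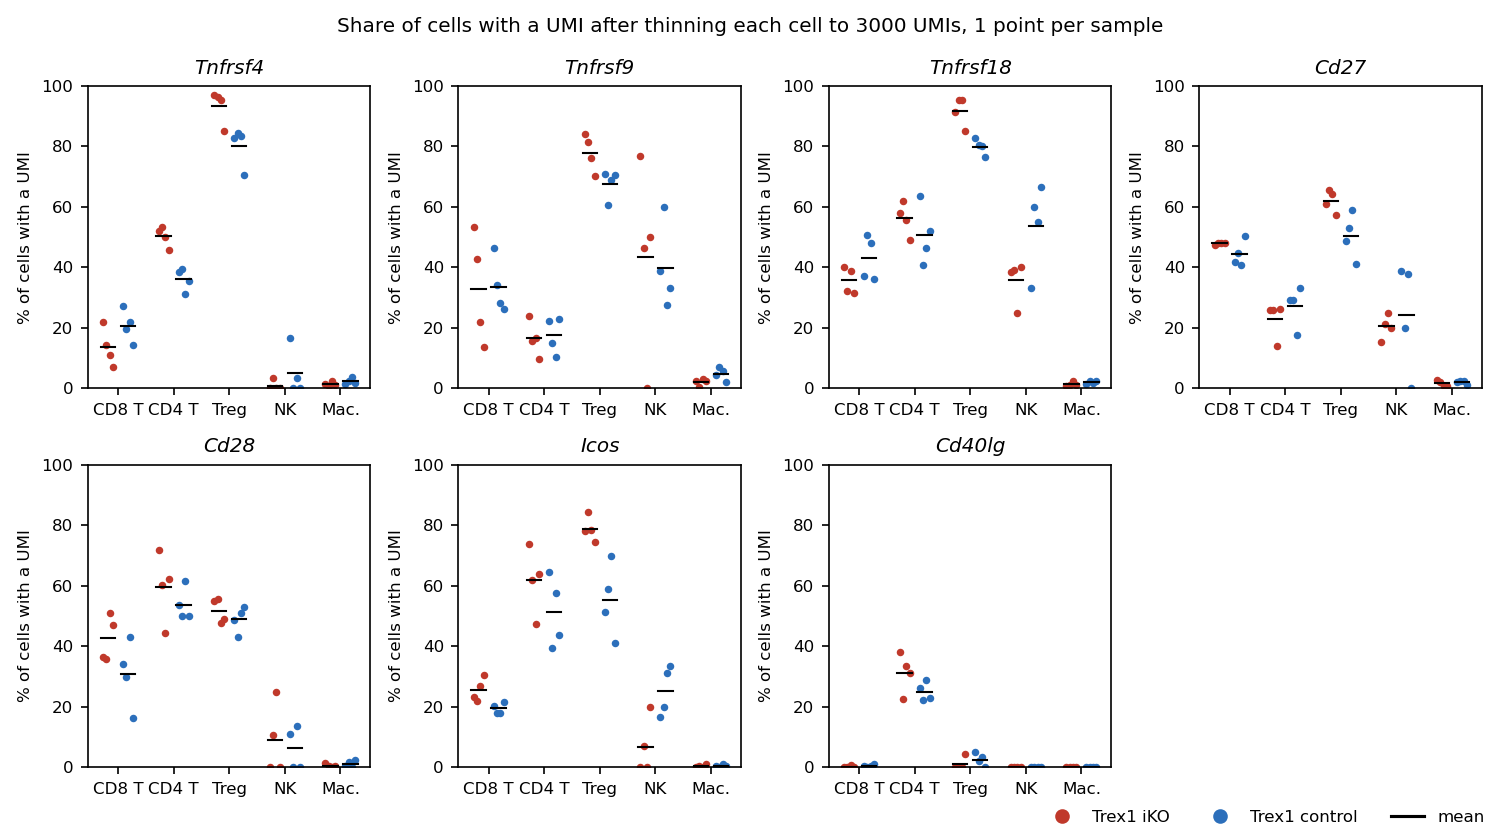
Percent of cells with at least 1 UMI of each member after each cell was thinned to 3000 UMIs (y axis), in 4 lymphocyte gates and macrophages (Mac.), with 1 point per sample and black lines at group means. Tnfrsf4 and Tnfrsf18 sit above 70% in every Treg sample, and macrophage points stay at or below 7.1%.

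The 3 chromosome 4 receptors were often read in the same Treg. At 3000 UMIs, 298 of 465 Treg (64.1%) held a UMI of Tnfrsf4, Tnfrsf9 and Tnfrsf18 together, against 61 of 563 CD4 T cells (10.8%) and 312 of 4473 CD8 T cells (6.98%). None of the 3 was read in 2.58% of Treg, 35.7% of CD4 T and 37.3% of CD8 T cells. These shares are over cells pooled from all samples. Within samples, Tnfrsf4 and Tnfrsf9 fell in the same CD8 T cell 2.14 ± 0.74 times as often as the product of their shares (SD, n = 8), and in the same CD4 T cell 1.85 ± 0.44 times as often. In Treg, where most cells carried each, the ratio was 1.07 ± 0.06. Tnfrsf9 and Cd28 were read together in CD8 T cells 0.811 ± 0.208 times as often as that product (SD, n = 8), with samples from 0.425 to 1.03.

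Inside the CD8 T gate, the members divided by differentiation state. Pdcd1 encodes the inhibitory receptor PD-1, gained on activation and exhaustion, and Tcf7 encodes TCF1 of naive, memory and progenitor T cells, so cells were split by detecting each, which cuts a continuum into ranges. Tnfrsf9 ran from 6.0 to 35.7 CPM (median 23.0) in Pdcd1- Tcf7+ cells and from 194 to 508 CPM (median 419.8) in Pdcd1+ Tcf7- cells of the 8 samples. The ranges did not overlap, and the difference was 3.93 ± 0.17 on the log2 scale (SE, edgeR adjusted p = 3.70e-11). Tnfrsf4 ran from 5.88 to 26.9 CPM (median 12) and from 70.8 to 318 CPM (median 171) in the same states, again without overlap (3.38 ± 0.26, adjusted p = 2.16e-08). Tnfrsf18 was higher in Pdcd1+ Tcf7- cells by 0.71 ± 0.16 (adjusted p = 0.00140). Cd28 was lower there by 0.26 ± 0.09 (adjusted p = 0.0207), from 160 ± 42.0 to 155 ± 50.1 CPM (SD, n = 8), a difference within the spread of samples that the sample-matched test nevertheless called. That call was lost with library sizes alone (-0.05, adjusted p = 0.629), with no low-count filter (-0.11, 0.572), with cells thinned (-0.22, 0.248), without iKO samples 1 and 2 (0.0647) and without iKO sample 1, iKO sample 3 or control sample 4 (0.0529 to 0.0536). Cd27 (-0.03, adjusted p = 0.878) and Icos (0.02, adjusted p = 0.912) were not called, and Cd40lg was too low to test. The 4 calls of 6 tested members stood against 55% of all genes. Pdcd1+ Tcf7+ cells reached 20 in the 4 iKO samples and in control sample 1 alone. Icos averaged 133 CPM there in iKO and stood at 75.2 CPM in the control sample, and Cd28 at 244 and 159 CPM, so state and genotype are mixed in these profiles.

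**Figure D3:**
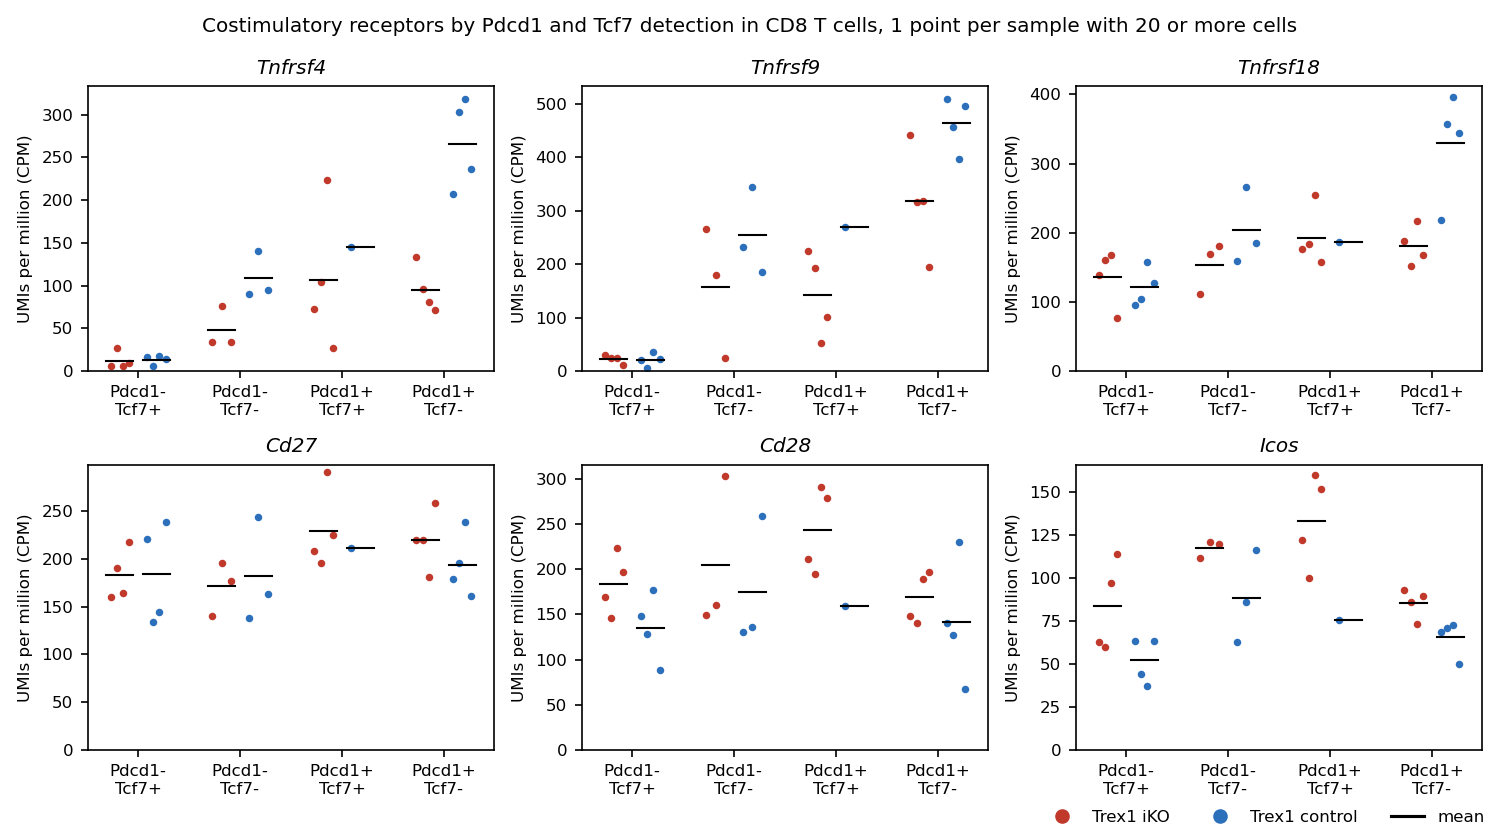
CPM of 6 members (y axis) in CD8 T cells split by at least 1 UMI of Pdcd1 and of Tcf7 (x axis), 1 point per sample with 20 or more cells, black lines at group means. Tnfrsf4 and Tnfrsf9 rise from Pdcd1- Tcf7+ to Pdcd1+ Tcf7- cells, and in the latter the control samples lie at 207 to 318 CPM of Tnfrsf4 and the iKO samples at 70.8 to 134 CPM.

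Between genotypes, CD8 T cells differed in Icos. It stood at 93.2, 86.8, 96.5 and 109 CPM in iKO samples 1 to 4 and at 68.2, 67.2, 68.5 and 54.3 CPM in control samples 1 to 4. Every iKO sample lay above every control sample. Icos was higher in iKO by 0.58 ± 0.10 on the log2 scale (SE, edgeR adjusted p = 0.0157). It was the 1 member called of 6 tested, where 3.21% of all genes were called. The call held without iKO samples 1 and 2 (0.65, adjusted p = 0.0172) and in CD8 T cells with Pdcd1 (0.49, adjusted p = 0.0361). It was lost when cells were thinned (adjusted p = 0.107), without the 5% of cells with the most UMIs (0.0520), in cells without cycling genes (0.0678) and without control sample 2 (0.0567).

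Tnfrsf4 lay the other way in CD8 T cells without passing the test. It stood at 126, 94.3, 80.8 and 43.4 CPM in iKO samples 1 to 4 and at 176, 209, 191 and 129 CPM in control samples 1 to 4. The highest iKO sample was just under the lowest control sample. The log2 difference was -0.99 ± 0.26 (SE, edgeR adjusted p = 0.0757), and without iKO samples 1 and 2 it was -1.55 and called (adjusted p = 0.00382). In CD8 T cells with Pdcd1, the difference was -1.25 and also called (adjusted p = 0.00506). It was called too by DESeq2 (0.00785), with a stricter gate (0.0499) and without iKO sample 1 (0.0288) or iKO sample 4 (0.0493). Tnfrsf18 stood at 185, 154, 206 and 144 CPM in iKO and 201, 277, 288 and 245 CPM in control, with 1 iKO sample above the lowest control sample. Its difference was -0.54 ± 0.15 (adjusted p = 0.0804), and among cells with Pdcd1 it was -0.73 (adjusted p = 0.0251), and it was called by DESeq2 (0.0203) and without control sample 1 (0.0342). Tnfrsf9 overlapped widely, at 418, 301, 200.0 and 110.4 CPM in iKO and 426, 316, 247 and 270.5 CPM in control (-0.26 ± 0.34, adjusted p = 0.738). Without iKO samples 1 and 2, Tnfrsf9 was called lower in iKO (-1.05, adjusted p = 0.0350). Cd27 stood at 216, 217, 199 and 233 CPM in iKO and 182, 183, 199 and 193 CPM in control, groups that met at 199 CPM (0.21 ± 0.09, adjusted p = 0.253). Cd28, at 151, 143, 220.2 and 223 CPM in iKO and 141, 134, 202 and 82.5 CPM in control, overlapped (0.39 ± 0.24, adjusted p = 0.424, or 0.64 and 0.175 without iKO samples 1 and 2). Cd40lg had 0 to 10 UMIs per sample and was not tested.

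Other measures moved with genotype in the same CD8 T gate, and their part in these results was not tested. Cycling genes were read in 76.4%, 71.2%, 47.2% and 46.9% of iKO cells and 61.8%, 44.4%, 37.2% and 39.3% of control cells. Median UMIs per cell were 8070 to 17886 in iKO and 8055 to 12440 in control samples. Neutrophil markers summed to 107 to 158 CPM in iKO and 278 to 1411 CPM in control, and macrophage markers to 151 to 240 and 325 to 371 CPM, with Csf1r and Cd79a at 0 by the gate. The T cell markers, Cd3 chains and Trac, summed to 3780 to 4268 CPM in iKO and 2881 to 3456 CPM in control without overlap, higher in iKO as Icos was, and the CD8 markers averaged 1749 and 1262 CPM.

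In CD4 T cells, 0 of 7 members were called by edgeR and 0 by DESeq2, with 1 at an unadjusted p under 0.05, against 1.59% of all genes called. Icos stood at 535, 474, 315 and 462 CPM in iKO and 424, 248, 328 and 313 CPM in control, with overlap (0.43 ± 0.18, edgeR adjusted p = 0.311). With cells thinned to 3000 UMIs and gated again on the thinned counts, Icos (0.84, edgeR adjusted p = 0.0191) and Tnfrsf4 (0.80, adjusted p = 0.0304) were called higher in iKO. A Treg with Cd4 that lost its Foxp3 UMIs in thinning could enter this gate, and the part of such cells was not tested. Tnfrsf4 stood at 693, 394, 337 and 361 CPM in iKO and 279, 405, 291 and 396 CPM in control, and iKO sample 1 was far above the other 7 samples (0.38 ± 0.22, adjusted p = 0.478). Without iKO samples 1 and 2, the difference was 0.04 for Tnfrsf4 and 0.25 for Icos. Cd40lg stood at 123, 93.5, 93.5 and 146 CPM in iKO and 114, 98.4, 122 and 113 CPM in control (0.02 ± 0.18, adjusted p = 0.973). The groups were interleaved. The other members had log2 differences of -0.15 for Tnfrsf9, 0.18 for Tnfrsf18, 0.10 for Cd27 and 0.11 for Cd28. Without iKO samples 1 and 2, these were -0.67, -0.01, -0.44 and -0.08, with adjusted p of 0.559 or more. The gate is not pure conventional helper cells: Il2ra or Ikzf2, genes also of Treg, was read in 33.3% to 50.9% of iKO and 35.3% to 42.8% of control cells. The 50.9% was that of iKO sample 1. Treg markers other than Foxp3, which the gate excludes, summed to 321 to 1194 CPM in iKO and 383 to 646 CPM in control. The part of such cells in the Tnfrsf4 and other values was not tested.

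In Treg, all 6 tested members had differences above 0, with a median of 0.41 on the log2 scale against -0.01 over all genes, and 0 were called by edgeR, against 1.37% of all genes. DESeq2 called 1 (Icos, 0.0223), and 3 had an unadjusted p under 0.05. Icos stood at 806, 789.9, 639 and 457 CPM in iKO and 358, 317, 448 and 261 CPM in control, and the groups did not overlap. The difference was 0.77 ± 0.20 (SE, edgeR adjusted p = 0.0748), in a fit that left out control sample 4 with its 19 Treg. Without iKO samples 1 and 2, it was 0.47 (adjusted p = 0.536), and without iKO sample 4 it was 0.94 and called (0.0138). Tnfrsf18 stood at 1316, 1534, 1131 and 932 CPM in iKO and 945, 840.4, 782 and 552 CPM in control, overlapping in 1 sample of each (0.45 ± 0.16, adjusted p = 0.221). Tnfrsf4 stood at 2253, 2438, 1322 and 1034 CPM in iKO and 1410.1, 1202, 1193 and 806 CPM in control, and iKO samples 1 and 2 were the high ones. Its difference was 0.41 ± 0.24 (adjusted p = 0.533) and turned to -0.18 without those 2 samples. Tnfrsf9 (0.31 ± 0.18), Cd27 (0.35 ± 0.16) and Cd28 (0.41 ± 0.20) had adjusted p of 0.510, 0.396 and 0.428. Without the 2 samples, these 3 were at 0.05, 0.13 and 0.08, and Tnfrsf18 at 0.20. Cd40lg, with 0 to 7 UMIs per sample, was not tested. Treg markers, Foxp3 and Ctla4 among them, summed to 3407 CPM in iKO and 2759 in control, and the T cell markers to 4076 and 3086 CPM. Neutrophil markers summed to 95.1 and 321 CPM, and macrophage markers to 157 to 210 CPM in iKO and 369 to 749 CPM in control, without overlap; their part in these values was not tested.

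NK cells allowed no genotype test, since only 1 sample per group had 20 of them. Tnfrsf9 stood at 763, 334, 109 and 203 CPM in iKO and 255, 315, 155 and 275 CPM in control. Tnfrsf18 stood at 200.3, 304, 201 and 254 CPM in iKO and 147, 543, 349 and 367 CPM in control. These values rest on 6 to 99 UMIs each, and the groups overlapped for both genes.

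**Figure D4:**
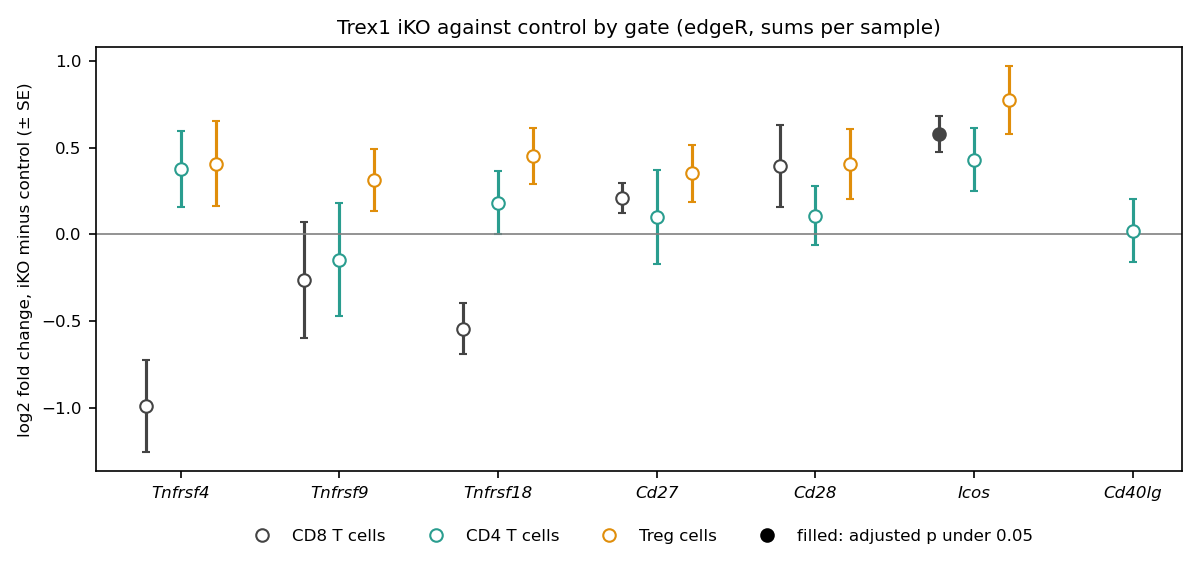
The log2 fold change of each member, iKO minus control, with its standard error (y axis), in CD8 T, CD4 T and Treg cells; filled points passed the threshold. Icos in CD8 T cells is the filled point, and Tnfrsf4 lies at -0.99 in CD8 T cells against 0.38 and 0.41 in CD4 T cells and Treg.

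Whether the genotype difference itself differed between gates was tested with an interaction term over the 3 T cell gates. By edgeR, 0 of 7 members were called for CD4 T minus CD8 T cells, 0 for Treg minus CD8 T cells and 0 for Treg minus CD4 T cells, where 0%, 0% and 0% of all 7570 genes were called. At an unadjusted p under 0.05 there were 2, 2 and 0 members, Tnfrsf4 and Tnfrsf18 in the comparisons with CD8 T cells, and DESeq2 called 1, 1 and 0 members. In fits of each gate alone, the iKO minus control difference of Tnfrsf4 was -0.99 in CD8 T cells, 0.38 in CD4 T cells and 0.41 in Treg. The interaction term put it above its CD8 T value by 1.46 ± 0.26 on the log2 scale in CD4 T cells (SE, edgeR adjusted p = 0.0733). In Treg, the term was 1.48 ± 0.26 (adjusted p = 0.111). Both were called without control sample 4 (0.0363 and 0.0467). For Tnfrsf18, the corresponding values were 0.73 ± 0.23 (adjusted p = 1) and 1.00 ± 0.24 (adjusted p = 0.422). For Icos they were -0.13 ± 0.24 and 0.24 ± 0.25, so its difference was not shown to vary between gates.

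The partners of these receptors were read in antigen-presenting cells. Cd40, the receptor of CD40 ligand, stood in macrophages at 147, 125, 36.8 and 39.1 CPM in iKO and 37.5, 27.9, 25.1 and 19.3 CPM in control. iKO samples 1 and 2 were far above the other 6, and the difference was 1.71 ± 0.48 (SE, log2, edgeR adjusted p = 0.0668), or 0.41 without those samples; it was called without iKO sample 3 (0.0231) or iKO sample 4 (0.0384). In mature DC, Cd40 stood at 406, 389, 194 and 212 CPM in iKO and 176, 109, 238 and 139 CPM in control, and Cd86, a CD28 ligand, at 580.2, 499.7, 215 and 215 CPM against 259, 148, 239.6 and 224 CPM. Again iKO samples 1 and 2 were the high ones (1.05 ± 0.26, adjusted p = 0.0893, and 1.01 ± 0.29, adjusted p = 0.147, with iKO sample 3 left out of the fit for its 16 cells). Both were called without iKO sample 4 (0.00434 and 0.00127). Tnfsf9, the ligand of 4-1BB, stood there at 248, 101, 201 and 177 CPM in iKO and 52.7, 86.9, 117 and 152 CPM in control, with overlap (0.74 ± 0.32, adjusted p = 0.388). Of the ligand list, edgeR called 0 of 5 in macrophages, 0 of 7 in mature DC and 0 of 1 in B cells, where 5.02%, 0.906% and 2.08% of all genes were called. At an unadjusted p under 0.05 there were 1, 3 and 0, and DESeq2 called 1, 2 and 0. B cell Icosl, the ICOS ligand, was at 138, 109, 118 and 67.6 CPM in iKO and 56.6, 83.2, 72.8 and 8.39 CPM in control (0.67 ± 0.33, adjusted p = 0.412).

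Antigen-presenting cells also carried members. Tnfrsf9 in mature DC stood at 149, 67.3, 128 and 108 CPM in iKO and 215, 211, 284 and 225 CPM in control. The groups did not overlap, and it was lower in iKO by 1.08 ± 0.23 on the log2 scale (SE, edgeR adjusted p = 0.0486), the 1 member called of 3 tested, where 0.906% of all genes were called. The call ended on leaving out iKO sample 1, iKO sample 2 or any control sample (adjusted p from 0.0583 to 0.218). It was also lost with library sizes alone (0.0535), with cells thinned (0.137), without the 5% of cells with the most UMIs (0.125) and with profiles of 10 cells or more (0.0507). Tnfrsf4 and Tnfrsf18 were not called there (-0.02, adjusted p = 0.995, and 0.10, adjusted p = 0.911). In macrophages, Tnfrsf9 stood at 8.62, 7.29, 6.39 and 5.27 CPM in iKO and 14.1, 15.4, 24.2 and 10.8 CPM in control. It was lower in iKO by 1.18 (edgeR adjusted p = 0.0394), and Cd28 was lower by 1.49 (adjusted p = 0.0437). These were 2 of 5 members tested, against 5.02% of all genes called. All 5 had an unadjusted p under 0.05, against 23.1% of all genes. Tnfrsf4 (2.43 to 3.83 CPM in iKO, 4.31 to 5.70 in control) and Tnfrsf18 (4.47 to 7.19 and 7.32 to 10.3) were also lower without overlap. Cd27 was higher in iKO (4.39 to 6.05 and 2.80 to 4.19 CPM). The Tnfrsf9 call ended on leaving out any sample but iKO sample 3 (adjusted p up to 0.109), and the Cd28 call on leaving out any but iKO sample 3 and control sample 1 (up to 0.131). Without iKO samples 1 and 2, neither was called (-1.54, adjusted p = 0.0776, and -1.46, adjusted p = 0.200), and the Cd28 call was lost without the 5% of cells with the most UMIs (0.0503). Macrophages are also the gate used as background. In them, Treg markers summed to 7.50 to 11.7 CPM in iKO and 15.2 to 17.8 CPM in control, and mature DC markers to 3.44 to 6.23 and 6.44 to 17.7 CPM, neither with overlap. Neutrophil markers in mature DC summed to 62.4 to 82.7 CPM in iKO and 179 to 474 CPM in control, and macrophage markers there to 146 to 213 and 290 to 772 CPM, again apart. The part of these markers in the values of Tnfrsf9, Cd28 and the other members was not tested.

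**Figure D5:**
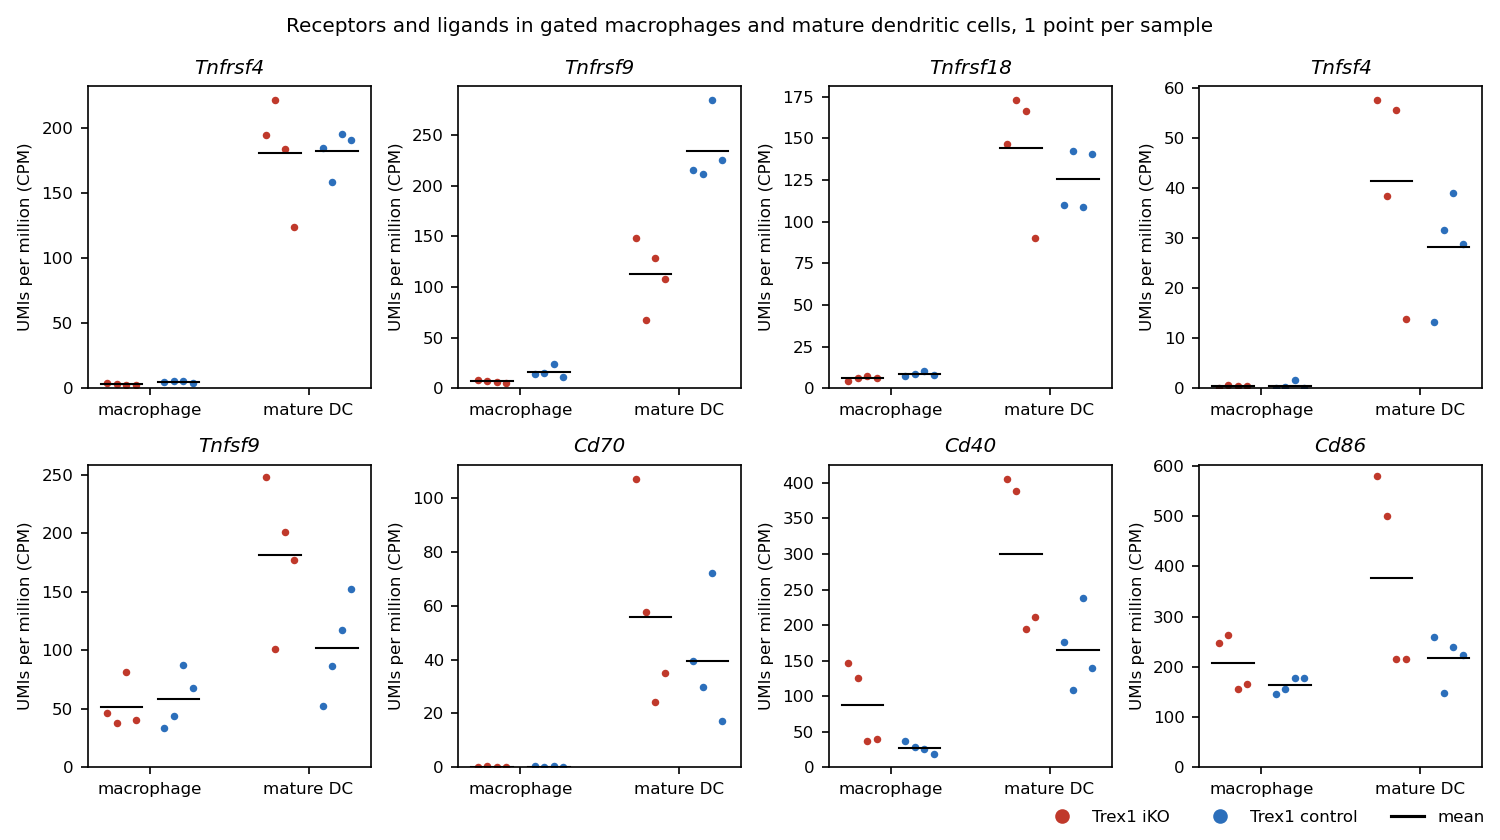
CPM of 3 members and 5 partners (y axis) in macrophages and mature DC, 1 point per sample (red, iKO; blue, control), black lines at group means. Tnfrsf9 in mature DC lies at 67.3 to 149 CPM in iKO and 211 to 284 CPM in control, and iKO samples 1 and 2 are the high points of Cd40 and Cd86.

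The other pathway genes came from lists of partners, related receptors, adaptors and targets. In CD8 T cells, Cd70, the CD27 ligand, stood at 6.06, 5.77, 6.94 and 8.85 CPM in iKO and 17.1, 35.6, 31.6 and 17.6 CPM in control. The groups did not overlap, and it was lower in iKO by 1.94 ± 0.27 on the log2 scale (SE, edgeR adjusted p = 0.00427), the 1 ligand called of 5, where 3.21% of all genes were called. Pdcd1 was higher by 0.77 ± 0.16 (adjusted p = 0.0295), the 1 related receptor called of 4, but without iKO samples 1 and 2 it was at 0.42 (adjusted p = 0.0860), and leaving out any of iKO samples 1 and 2 and control samples 2, 3 and 4 ended the call (0.0697 to 0.107), as did leaving out the 5% of cells with the most UMIs (0.0589). In Treg, the survival gene Bcl2 was lower by 1.92 ± 0.41 (adjusted p = 0.0361), on 4 to 32 UMIs per sample, and it was the 1 target called of 6, against 1.37% of all genes. Leaving out any of iKO samples 1, 2 and 3 and control samples 2 and 3 ended that call (adjusted p from 0.0747 to 0.233), as did leaving out iKO samples 1 and 2 together (-1.28, 0.384) or the 5% of cells with the most UMIs (0.0537). Of the adaptors, from Traf1 to Lck, edgeR called 0 of 24 in CD8 T, 0 of 24 in CD4 T and 0 of 23 in Treg, against 3.21%, 1.59% and 1.37% of all genes, with 6, 2 and 1 at an unadjusted p under 0.05 and 0, 1 and 1 by DESeq2. Vav1, which relays receptor signals to the cytoskeleton, was called higher in iKO macrophages (0.78). That call ended on leaving out any sample but iKO samples 3 and 4 and control sample 1 (adjusted p up to 0.105), without iKO samples 1 and 2 (0.44, 0.121) and with cells thinned (0.0893).

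Likeness of pattern was described over 25 profiles of sample and gate by Pearson's r of log2(CPM + 1), points that share samples and libraries. Tnfrsf4 was most like Ikzf4 (0.94), Sdcbp2 (0.94) and Ctla4 (0.94), Tnfrsf9 most like Snx9 (0.91), Pglyrp1 (0.91) and Impa2 (0.90), and Tnfrsf18 most like Srgn (0.95), Odc1 (0.92) and Picalm (0.92). Cd27 was most like Ubash3b (0.89), E2f3 (0.89) and Snx9 (0.86). Cd28 was most like Mpzl3 (0.89), Smpdl3a (0.89) and Cd5 (0.89), Icos most like Retreg1 (0.95), Arhgap31 (0.94) and Slc15a3 (0.93), and Cd40lg most like Gm14718 (0.92), Furin (0.90) and St8sia1 (0.88). Among members, Tnfrsf9 and Cd27 had r = 0.85, Tnfrsf4 and Icos 0.82, and Cd27 and Cd40lg -0.65. Cd28 and Icos, which had r = 0.82, lie on chromosome 1 with Ctla4 as the 1 protein-coding gene between them.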

How the data were processed

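The deposited matrices hold UMI counts per gene and barcode, whole numbers, 1 matrix per hashtagged sample, which the authors made with Cell Ranger 7.1.0 on GRCm39, per the submitters' processing notes. The rule that assigned barcodes to hashtags is not given in the sources used here. Hashtag features and 92 spike-in features with 0 counts were left out. No barcode was shared within a pool, 45 were shared between pools, and 7 cells that met 2 gates were dropped. Gates required 1 or 2 UMIs of lineage markers and no UMI of other lineages. No doublet caller was run; an alternative left out the 5% of cells with the most UMIs. Tcrg-C1 was not analysed here.

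UMI counts of each sample and gate were added up (20 cells or more) and tested with edgeR 4.0.16 in R 4.3.3: TMM, filterByExpr, the quasi-likelihood test and Benjamini-Hochberg adjustment over all genes tested, threshold 0.05. Tests between gates and states had the sample as a term. DESeq2 1.42.0 was an alternative. CPM values use summed UMIs alone. Simulated counts had 200 genes changed 4-fold. Recovery was 100% of them in CD8 T (9350 genes), 98% in CD4 T (5414) and 98% in Treg profiles (6580). False calls were 5.21%, 6.22% and 2.97% of all calls. A 4-fold change is larger than the genotype difference of any tested member in these gates. Recovery of changes as small as theirs was not tested. Every member is named in every lymphocyte gate, list genes where called, ligands in antigen-presenting gates, and the 3 most alike genes per member. The members and lists were chosen with earlier results of these data known.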

Additional observations from a re-analysis of the deposited data

Results flagged for a closer look

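Of 69 groups of 4 samples examined, 6 had a sample far from the other 3, and chance alone gives this in about 5% of groups. For members, these were Tnfrsf4 in CD4 T cells of iKO sample 1, at 693 CPM, and Icos in CD8 T cells of control sample 4, at 54.3 CPM. In macrophages, Cd70 was at 0.275 CPM in iKO sample 2. In B cells, Cd80 was at 27.3 CPM in iKO sample 2, Tnfsf4 at 0.934 CPM in control sample 3 and Cd86 at 72.8 CPM in control sample 3. For Cd70, Cd80 and Tnfsf4 the other 3 samples were at 0, where any count in 1 sample is flagged.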

How the results depend on the processing

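The main count of members called was 1 in CD8 T cells. It was 3 with DESeq2, 3 with the replicate block, 0 with cells thinned to 3000 UMIs, 2 with a stricter gate, 3 in CD8 T cells with Pdcd1, 0 without the 5% of cells with the most UMIs, 0 without cycling genes and 3 without iKO samples 1 and 2. Leaving out each sample in turn gave 0 to 2. The CD4 T count of 0 became 2 (Tnfrsf4 and Icos) when thinned. The Treg count of 0 became 1 with DESeq2, 3 with no low-count filter, 1 with the replicate block and 1 with 10 cells per profile, and 0 to 1 leaving out each sample. Ligands called in macrophages, 0, became 1 with DESeq2, 1 with no filter and 1 with the block, and 0 to 1 leaving out each sample; in mature DC, 0 became 2 with DESeq2 and 3 with no filter, and 0 to 2 leaving out each sample, while dropping iKO samples 1 and 2 could not be fitted there. Members called between Treg and CD8 T cells, 7, ran from 5 (without iKO sample 2) to 7 leaving out each sample. Between NK and CD8 T cells, 2 became 4 when thinned and 0 without iKO samples 1 and 2, and 0 to 2 leaving out each sample. For the difference of the genotype effect, CD4 T minus CD8 T cells, 0 became 1 with no filter, 1 when thinned and 1 with DESeq2; for Treg minus CD8 T cells, 0 became 2 with no filter, 1 when thinned, 1 with DESeq2 and 1 with 10 cells; both gave 0 to 1 leaving out each sample. Between CD8 states, 4 became 2 when thinned, and ran from 3 to 4 leaving out each sample. The cause was not tested. The counts of all genes also moved by over 1.5 times: in CD8 T cells from 300 to 666 with the block and 117 when thinned, in CD4 T cells from 86 to 315 with no filter and 20 without iKO samples 1 and 2, and in Treg from 90 to 355 with no filter and 8 without those samples. Same-numbered samples had correlated deviations of 0.532, 0.036, 0.158 and 0.259 for numbers 1 to 4, and each correlated best with its own number only for 1 and 4, so the numbers are not shown to pair samples. The block called Tnfrsf4 (-1.05, adjusted p = 0.00411) and Tnfrsf18 (-0.54, 0.0320) lower in iKO CD8 T cells and Icos (0.92, 0.0338) higher in iKO Treg, and ended the calls of Tnfrsf9 in mature DC (0.0753) and Cd28 in macrophages (0.0702). Of 95 gene comparisons, 63 kept their call under every alternative and none reversed. The 10-cell profiles, the removal of cycling cells and the removal of iKO samples 1 and 2 were chosen after seeing the data. The number of cells limits the NK gate, which had no genotype test.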
